A study of Mus musculus with 19 samples.

Results

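Chromatin accessibility was compared between Foxc1 mutants and controls that had both received retinoic acid. The comparison uses 11 of the 19 bulk ATAC-seq libraries of the study, chosen by their titles: 6 mutant libraries with the genotype Foxc1 hith/LacZ and 5 control libraries with the genotype Foxc1 WT, all with the treatment label RA diet. The cells were Prom1-positive neural progenitors separated magnetically from mouse forebrain at embryonic day 14. Hith is a hypomorphic allele of Foxc1, and LacZ an allele in which the bacterial reporter interrupts the gene. Every control here is also a diet control, so the comparison shows the genotype difference in the presence of the diet and not the action of the diet itself. The remaining 8 libraries, 4 titled mutant and 4 control, had no diet and serve only as an outside reading. Of these, mutant 1 has the genotype label Foxc1 WT, against its title. Dose and duration of the diet are not in the labels, nor is it stated if each library is a different embryo, and p-values therefore measure only the spread between these libraries.

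In ATAC-seq a transposase inserts adapters into open DNA, and a summit is the position where a peak of insertions is highest. Foxc1 encodes a forkhead transcription factor needed to form the meninges, the membranes around the brain, and meningeal cells make retinoic acid with the enzyme encoded by Aldh1a2. Retinoic acid binds nuclear receptors (Rar and Rxr) on DNA, while Notch receptors, once cleaved, act through the DNA-binding protein Rbpj to switch on Hes and Hey repressors that keep radial glia, the neural stem cells, from differentiating.

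The libraries held 29112 to 91114 deposited summits. To make lists of equal length, the 29112 best-scored summits of each library were used, a number set by mutant 4, which has the shortest list. This set is called matched, and a rank of 1 is its best summit. Equal length does not mean equal scores, as the median matched score was 7.33 in mutant 4 and 22.6 to 76.7 in the other libraries on the diet. Mutants had 63769 ± 23749 deposited summits and controls 77804 ± 13693 (SD, n = 6 and 5; exact two-sided permutation p = 0.284). The share of matched summits within 1 kb of either end of a protein-coding gene was 31.9% ± 2.23 in mutants (SD, n = 6) and 32.5% ± 0.491 in controls (SD, n = 5; exact permutation p = 0.665, 0.885 adjusted over 4 distance classes). Mutant 6 lay at 36.2% and mutants 1 to 3 at 30.2 to 30.8%, against 31.9 to 33.0% in controls. Leaving out each library in turn gave differences of -1.40 to -0.197 percentage points (exact permutation p = 0.0159 to 0.905). The extreme was without mutant 6, where the mutants were 1.40 percentage points lower (exact permutation p = 0.0159, 0.0635 adjusted). Mutant 6 has the highest share, so leaving it out was bound to lower the mutant mean. Deposited summits on the Y chromosome were present in control libraries 1 to 4 (4, 6, 6 and 6) and in mutant libraries 1 and 4 (5 and 4), and the other libraries had 0. A summit in the first 2 kb of Xist, the RNA gene of the inactive X chromosome, was present in exactly those others. Genotype and Y-chromosome signal are therefore unequally matched, 2 of 6 against 4 of 5, and fits with that signal as a term are given below.

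**Figure D1:**
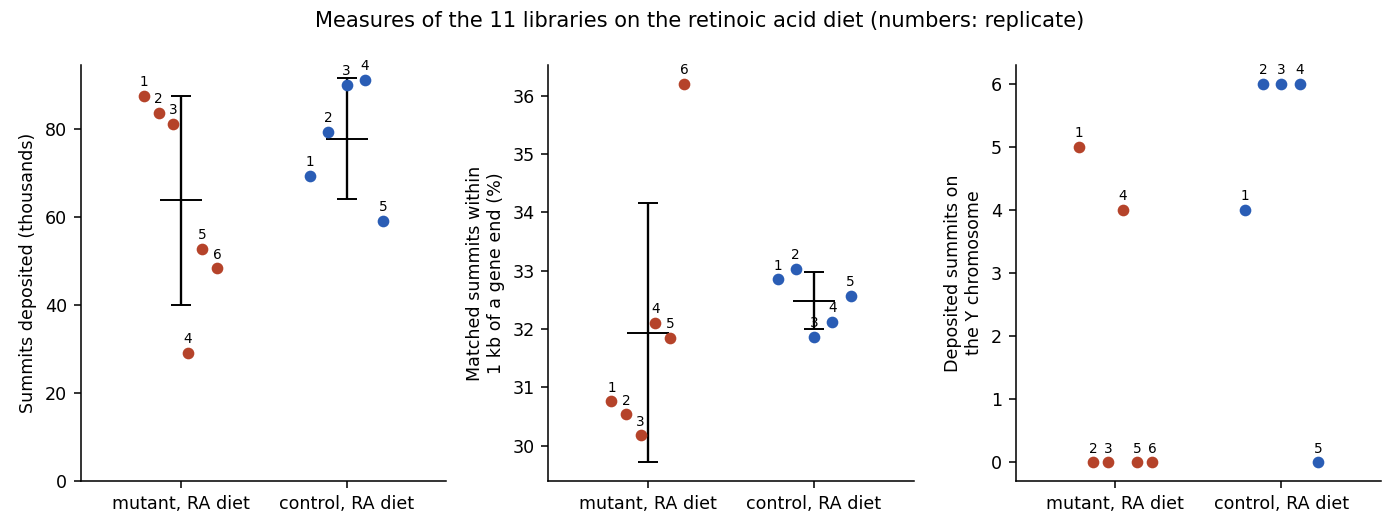
Summits deposited, share of matched summits within 1 kb of a gene end, and deposited summits on the Y chromosome in the 11 libraries on the diet (points, with replicate numbers). Black marks are the mean and SD (6 mutants, 5 controls). Mutant 4 has the shortest list, mutant 6 the highest near-end share at 36.2%, and Y summits occur in 2 of 6 mutants and 4 of 5 controls.

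The label of the cells was checked with marker genes. Of 9 neural progenitor markers, 7 (Sox2, Sox1, Emx2, Fabp7, Vim, Hes5 and Slc1a3) had a matched summit near a gene end (at most 1 kb away) in all 11 libraries. Prom1, the gene of the sorted surface protein, had one in 4 of 6 mutants and 5 of 5 controls, and Pax6 in 1 mutant. The endothelial markers Pecam1, Cdh5 and Cldn5, the microglial markers Aif1, Csf1r and Ptprc and the red cell markers Gata1, Klf1 and Hbb-bt had none in any library. Kdr, an endothelial receptor, and Col1a1, a collagen of fibroblasts, had one in all 11. Of the other meningeal markers, Foxd1 had one in 4 mutants and 5 controls, Foxc1 in 1 mutant, and Foxc2 and Col3a1 in no library. Pdgfrb of mural cells had one in 1 mutant and 1 control, and Rgs5 of mural cells in no library. Markers of more mature neural cells had summits as well. Btg2 of intermediate progenitors and Neurod6 of projection neurons had one in all 11, Bcl11b in 5 mutants and 5 controls, Neurog2 in 6 and 4, and Eomes in 3 and 4. Tbr1 of projection neurons had none in any library. Of the interneuron markers, Dlx2 had one in 3 mutants and 3 controls, Gad1 in 4 and 2, and Lhx6 in 1 and 0.

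Each summit was then given to 1 protein-coding gene, the one whose start or end lay closest and no more than 100 kb away, and summits were counted by gene and library. No gene differed between mutants and controls in limma with Benjamini-Hochberg adjustment: 0 of 7038 genes tested (0.0%) passed, and the smallest adjusted value was 0.301. Another 4132 genes averaging 1 summit or more had the same count in all 11 libraries and could not be tested. At an unadjusted limma p under 0.05, 201 genes (2.86%) had fewer summits in mutants and 130 (1.85%) more. With the Y-chromosome signal as a term, 0 genes were called (479 at an unadjusted p under 0.05, smallest adjusted p 0.215). The genes named next are among those with the 6 smallest p-values in each direction, and none passed the adjusted test.

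Bmpr1a, which encodes a type I receptor for bone morphogenetic proteins, had the smallest p. The 6 mutants held 1, 1, 1, 1, 2 and 1 summits there and the 5 controls 2, 3, 3, 3 and 3, so the groups met only at 2. The log2 difference was -1.0 (SE 0.184, limma adjusted p = 0.301), on the log2(summits + 0.5) scale used throughout. Off the diet the 4 mutants held 3, 2, 2 and 3 and the 4 controls 3, 3, 2 and 3, which overlap.

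Rtn1, the gene of a reticulon protein of the neuronal endoplasmic reticulum, held 5, 5, 3, 5, 4 and 4 summits in mutants and 7, 7, 6, 7 and 8 in controls (log2 difference -0.65, SE 0.134). Every mutant lay below every control. At Pdcd1, the gene of the immune receptor PD-1, all 6 mutants held 1 summit and all 5 controls 2. Neither group showed any spread there, so its SE of 0.157 is borrowed by limma from other genes. Slc25a33, a mitochondrial nucleotide carrier gene, held 2 or 3 summits in each mutant and 4 in each control. Map3k1, the gene of a kinase of the MAP kinase cascade, held 1 or 2 against 2 or 3 (log2 difference -0.76). F2rl2, which encodes a protease-activated receptor, held 1 or 2 against 2 or 3 (log2 difference -0.71).

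In the other direction, Emcn, which encodes the endothelial sialomucin endomucin, held 3, 2, 2, 3, 2 and 2 summits in mutants and 1 in each control (log2 difference 0.90, SE 0.171, limma adjusted p = 0.301). Among the 15 endothelial genes listed, 6 could be tested, 2 higher and 4 lower in mutants, with a median log2 difference of -0.02. Their summed counts were 15 to 18 per mutant and 13 to 19 per control. Whether endothelial cells contributed to the Emcn counts was not tested.

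Fgfbp3, whose product binds fibroblast growth factors, held 2 summits in every mutant and 1 in every control (log2 difference 0.74). All 8 libraries off the diet also held 1. No group showed any spread at Fgfbp3, so its SE of 0.154 is borrowed by limma from other genes. Mak, the gene of a kinase of cilia, held 2 in every mutant and 0, 1, 1, 1 and 1 in controls (log2 difference 1.05). The choline transporter gene Slc44a1 and the nuclear kinase gene Rps6ka5 differed by 0.75 and 0.81 on the log2 scale, and at both genes the groups met at 2 summits. These 5 directions rest on lists of equal length: counting every deposited summit, of which mutants had fewer, the log2 differences were -0.19 at Emcn, -0.03 at Fgfbp3, -0.24 at Mak, -0.64 at Slc44a1 and -0.18 at Rps6ka5. The 6 genes with fewer summits in mutants were lower in both counts. Since mutants had fewer deposited summits, the count of all of them cannot serve as a check in that direction.

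**Figure D2:**
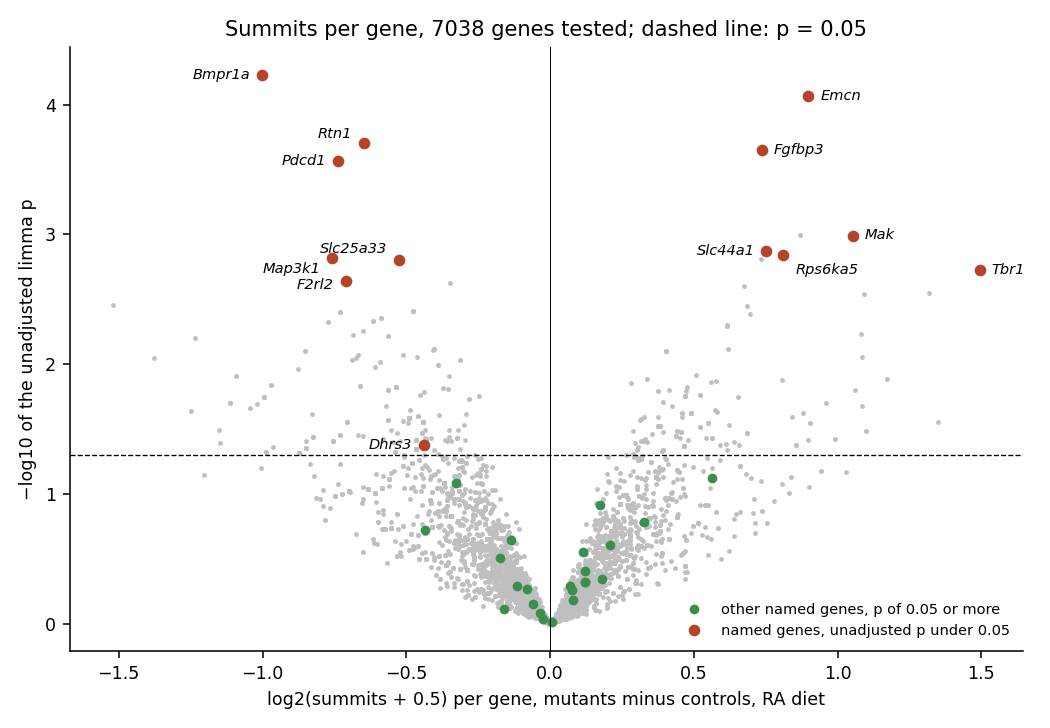
Log2 difference in summits per gene (mutants minus controls on the diet) against -log10 of the unadjusted limma p for the 7038 genes tested (grey points). Red points are named genes with an unadjusted p under 0.05, green points the other named genes, most of them Notch and retinoic acid genes near the bottom; no gene passed an adjusted p of 0.05.

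None of the genes of the study's question passed the test. Sox2, a transcription factor gene of neural stem cells, held 7, 8, 10, 8, 9 and 8 summits in mutants and 10, 8, 8, 10 and 10 in controls. The groups overlapped, and the log2 difference was -0.14 (SE 0.107, limma adjusted p = 0.825). With 0.5 times as many summits per library the difference turned to 0.74 (limma adjusted p = 0.804). Among 17 regions around Sox2, 2 were held by all 11 libraries, one 7318 bp from the nearest gene end and one 9841 bp from it. The region 101 bp outside the gene was held by 5 of 6 mutants and 5 of 5 controls, mutant 4 being the exception.

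Of 28 Notch pathway genes, 22 could be tested. 11 of them had more and 11 fewer summits in mutants, 0 passed at an adjusted or an unadjusted p under 0.05, and the median log2 difference was -0.00 beside -0.02 over all genes tested. Summed over the list, mutants held 75 to 91 summits and controls 76 to 83. Among the receptors, Notch1 held 5, 5, 4, 4, 7 and 7 against 7, 6, 4, 5 and 7, overlapping over the whole control range. Notch2 differed by 0.08 and Notch3 by -0.02 on the log2 scale. The ligand genes Dll1, Dll3 and Jag1 differed by 0.21, 0.12 and -0.06, and Rbpj, the DNA-binding partner, by -0.03. Of the target genes, Hes1 differed by 0.08, Hes5 by 0.12 and Hey1 by 0.18, and Hey2 held 1 summit in every library. Nrarp, a feedback inhibitor of Notch, had the smallest p of these, with 3, 2, 2, 4, 2 and 3 summits in mutants and 3, 4, 3, 3 and 4 in controls (log2 difference -0.33, SE 0.176, limma adjusted p = 0.825). Its groups overlapped at 3 and 4.

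The promoters of Hes5 and Hey2 are shown because they carry a summit in all 11 libraries and the short motif TGGGAA, the core that Rbpj binds; that of Sox2 because it carries AGGTCA, the core of retinoic acid receptor sites; and that of Pgk1 because its summit ranks are described below. Each line gives the 250 bases before the annotated start site, 5′ to 3′ on the gene's own strand, from RefSeq GRCm38.p6, with the motif or its reverse complement in capitals.
Hes5: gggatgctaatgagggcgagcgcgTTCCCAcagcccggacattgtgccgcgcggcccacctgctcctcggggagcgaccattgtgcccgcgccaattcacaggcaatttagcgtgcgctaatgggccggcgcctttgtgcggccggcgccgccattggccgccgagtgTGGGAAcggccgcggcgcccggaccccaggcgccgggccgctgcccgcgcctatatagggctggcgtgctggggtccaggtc
Hey2: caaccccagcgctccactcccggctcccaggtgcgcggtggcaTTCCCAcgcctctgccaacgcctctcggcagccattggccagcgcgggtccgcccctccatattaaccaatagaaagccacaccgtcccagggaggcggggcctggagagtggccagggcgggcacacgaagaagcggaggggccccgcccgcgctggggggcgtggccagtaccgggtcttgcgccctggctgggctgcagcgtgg
Sox2: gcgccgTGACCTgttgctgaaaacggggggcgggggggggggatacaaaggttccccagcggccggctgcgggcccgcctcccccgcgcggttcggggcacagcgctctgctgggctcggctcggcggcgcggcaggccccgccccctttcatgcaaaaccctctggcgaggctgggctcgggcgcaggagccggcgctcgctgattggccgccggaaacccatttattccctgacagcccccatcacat
Pgk1: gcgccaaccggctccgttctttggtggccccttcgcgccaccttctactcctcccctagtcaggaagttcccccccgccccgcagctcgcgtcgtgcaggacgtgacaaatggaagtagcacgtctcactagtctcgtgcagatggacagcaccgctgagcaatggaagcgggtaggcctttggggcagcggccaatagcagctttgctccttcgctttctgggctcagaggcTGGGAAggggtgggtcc
The stretches lie at chr4:154960673-154960922 (plus strand), chr10:30842784-30843033 (minus), chr3:34649745-34649994 (plus) and chrX:106186850-106187099 (plus). The search covered both strands, and each motif was searched without regard to overlap with the other. Hes5 had 2 matches to TGGGAA, at 82 and 226 bases before the start site, Hey2 had 1 at 207 and Pgk1 1 at 17. Sox2 had 1 match to AGGTCA, at 244 bases. TGGGAA occurred in 20.9% of the 21262 promoter windows of protein-coding genes and AGGTCA in 12.8%, so a match is common. Windows of 300 bases with TGGGAA held a matched summit in 31.6% ± 1.61 of cases in mutants and 32.8% ± 0.498 in controls (SD, n = 6 and 5). With AGGTCA these shares were 21.1% ± 1.15 and 21.8% ± 0.723, and over all windows 32.3% ± 1.88 and 33.7% ± 0.471. For each motif, and over all windows, the range of the mutants enclosed that of the controls, with mutant 6 the highest of all libraries. Over all windows mutants 1 to 5 held 30.1 to 33.3% and controls 33.0 to 34.1%, which barely overlap.

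The ranks of summits at Notch targets did not separate the groups. The Hes5 summit ranked 6543, 10325, 13960, 13606, 10215 and 4532 in mutants and 12999, 7793, 8796, 8712 and 8574 in controls. Mutants lay on both sides of the control range (limma adjusted p = 1.00 on normal scores of the rank). At Hey2 the ranks were 2065 to 2801 in mutants and 1858 to 2773 in controls. The Hes1 promoter region, 92 bp outside the gene, ranked 9834 to 18836 against 11775 to 14439, and the Dll1 region, 901 bp from a gene end, 14055 to 21165 against 7484 to 22361.

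Among 25 genes of retinoic acid signalling, 17 could be tested, 6 higher and 11 lower in mutants, with a median log2 difference of -0.05 and 0 called. The receptor genes Rara, Rarb and Rxra differed by -0.17, -0.08 and -0.43 on the log2 scale. Rxra varied most within a group, with 4, 4, 3, 2, 1 and 7 summits in mutants against 5, 6, 4, 3 and 4 in controls. Aldh1a2, the gene of the synthetic enzyme, held 1, 1, 1, 2, 1 and 2 against 0, 1, 1, 1 and 1 (log2 difference 0.56, SE 0.294, limma adjusted p = 0.825). Dhrs3, whose product turns retinaldehyde back to retinol, held 2, 2, 2, 1, 1 and 2 against 2, 3, 2, 2 and 3 (log2 difference -0.44, SE 0.198). Stra6, a retinol uptake receptor gene, held 1 or 2 in mutants and 2 or 3 in controls (log2 difference -0.54). Nrip1, a nuclear receptor corepressor gene, had the opposite sign (log2 difference 0.39). Dhrs3, Stra6 and Nrip1 were the 3 of 17 genes of the list at an unadjusted p under 0.05, beside 331 of 7038 (4.70%) over all genes tested. Stra6 and Nrip1, and Ccnd2 and Ptch1 below, are named after their values were seen. Crabp2, a retinoic acid carrier gene, held 1 summit in every library. Cyp26b1, the gene of an enzyme that degrades retinoic acid, held 1, 1, 2, 0, 1 and 0 in mutants and 1 in each control, a mean too low for the test. Cyp26a1, of the same enzyme family, had 0 in all 11.

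At genes of differentiation most counts overlapped. Pax6 held 8 to 12 summits in mutants and 8 to 10 in controls, Neurog2 5 against 4 or 5, and Eomes, of intermediate progenitors, 2 to 4 in both groups. The exception in size was Tbr1, a transcription factor gene of deep-layer neurons, with 3, 2, 2, 2, 2 and 5 summits in mutants and 0, 2, 1, 1 and 0 in controls (log2 difference 1.49, SE 0.397, limma adjusted p = 0.825). The groups met at 2, mutant 6 alone held 5, and counting every deposited summit the difference was -0.47. All 6 mutants and 3 of 5 controls held the region 23352 bp from the gene, and no library held one within 1 kb of a gene end. Of 20 projection neuron genes, 17 could be tested, 9 higher and 8 lower, and Tbr1 alone reached an unadjusted p under 0.05, a share near the 4.70% over all genes tested.

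The other gene groups had 0 calls, and their directions were even in some and uneven in others. Radial glia genes were 13 higher and 11 lower among 24 tested, and intermediate progenitor genes 7 and 6 among 13. Cell cycle genes were 6 and 7 among 13, with Ccnd2, a cyclin gene, at 3, 2, 2, 3, 3 and 4 against 3, 5, 5, 4 and 5 (log2 difference -0.57, at an unadjusted p under 0.05). In the Wnt and BMP list, which holds Bmpr1a, 7 were higher and 14 lower among 21. In the Hedgehog list, 4 were higher and 7 lower among 11, and Ptch1, the Hedgehog receptor gene, held 6 to 9 summits in mutants and 9 to 11 in controls (log2 difference -0.31, at an unadjusted p under 0.05). Meningeal fibroblast genes were 8 higher and 2 lower among 10 tested, with a median log2 difference of 0.30 and summed counts of 24 to 35 in mutants and 23 to 27 in controls, the highest in mutant 6. Mutant 6 also had the highest sum in the Notch, retinoic acid and intermediate progenitor lists, and its part in these values was not tested. Foxc1 itself held 1, 1, 1, 2, 1 and 3 against 1 in each control. A summit count does not show whether a gene carries the hith or LacZ allele, so these values do not check the genotype. In bulk samples, fewer cells of a type and less open chromatin per cell cannot be told apart.

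**Figure D3:**
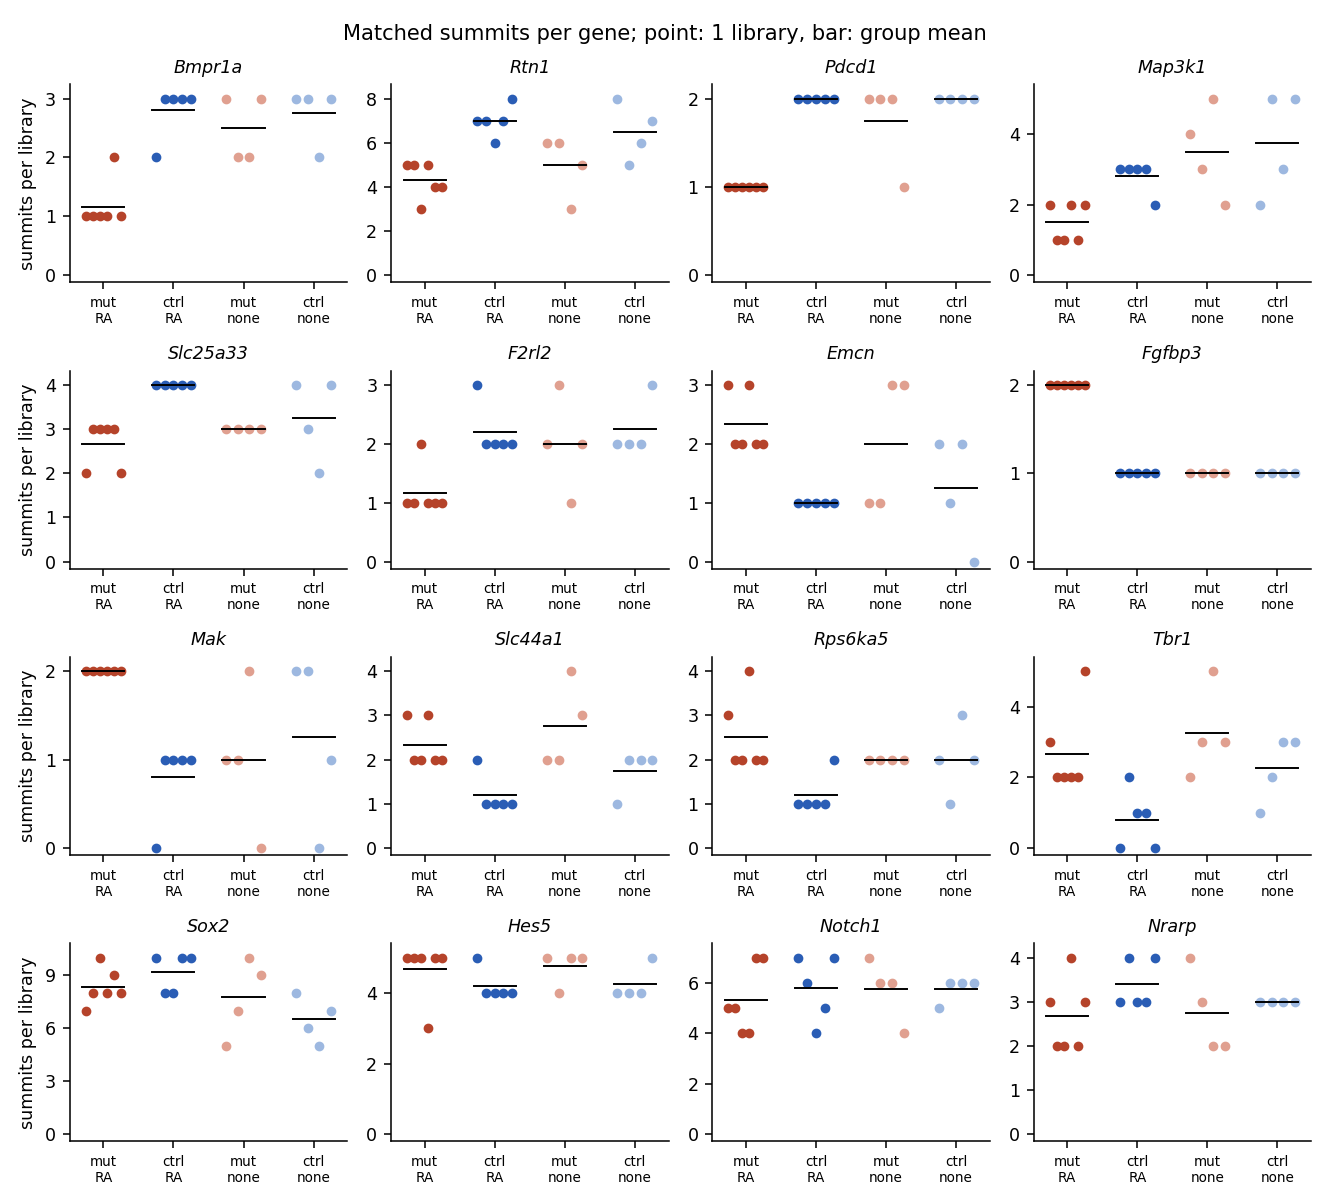
Matched summits per library at 16 genes: the 11 described above for their small p, then Tbr1, Sox2, Hes5, Notch1 and Nrarp. Each point is 1 library, black bars are group means, and the groups are mutants and controls on the diet (mut RA, ctrl RA) and off it (mut none, ctrl none); Pdcd1 and Fgfbp3 show no spread within either group on the diet, and at Sox2, Hes5, Notch1 and Nrarp the groups overlap.

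To see single regions, summits of the 11 libraries at most 200 bp apart were chained. Of 39196 regions held by at least 2 libraries, 14887 (38.0%) were held by all 11, which leaves 24309 that could differ. A two-sided Fisher exact test with Benjamini-Hochberg adjustment called 0 of them, and the smallest p this design allows, 0.00216, was reached by too few regions to pass the adjustment. At an unadjusted Fisher exact p under 0.05, 97 regions (0.399%) were less often and 44 (0.181%) more often held by mutants. These 141 became 213 (without control 1) to 414 (without mutant 6) when any 1 library was left out, over 1.5 times as many in each case, and 0 were called. The splits that reach an unadjusted Fisher exact p under 0.05 also change with the number of libraries. Complete separation was seen at 6 regions (0.0247%) held by all controls and no mutant, and at 4 (0.0165%) held by all mutants and no control. Leaving out any 1 library raised the first count to between 11 and 26 and put the second between 4 and 20, both highest without mutant 6. With 1 library fewer, complete separation is easier to meet, so these counts can hardly fall and do not measure stability. The second count was 9 without mutant 1, 7 without mutant 5, 8 without control 3 and 7 without control 5. Pairs of libraries shared a Jaccard index of 0.629 within mutants, 0.715 within controls and 0.667 between the groups, and within minus between was -0.00424 (exact permutation p = 0.695). Leaving out any 1 mutant turned its sign, and without mutant 6 it was 0.0105 (exact permutation p = 0.0635).

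The 6 regions of controls lay next to Zfp703, Sorl1, Atxn1, Bmpr1a, Pdcd1 and Tiam1. Those next to Zfp703 and Tiam1, and that next to Clec14a below, are more than 100 kb from a gene end and are named after their values were seen. The Bmpr1a region, chr14:34453950-34453953, is inside the gene, 42890 bp from its nearest end. It ranked 12619, 23105, 23515, 27639 and 24767 in controls and was outside the matched set of every mutant. Mutants 1, 2, 3 and 5 still had a deposited summit there, at ranks 46647, 29946, 35671 and 29726, while mutants 4 and 6 had none of any rank. The list of mutant 4 ends at rank 29112, so it could have none below the matched set. All 8 libraries off the diet held it in the matched set, at ranks 13455 to 26196. The Pdcd1 region, chr1:94079281-94079286 and 26730 bp outside the gene, was held by 3 of 4 mutants and 4 of 4 controls off the diet. The region in Sorl1, which encodes a neuronal sorting receptor, and that near Atxn1, the ataxin 1 gene, still had a lower-ranked summit in 4 and 5 of 6 mutants. At Tiam1 another region, 201 bp away, was held by 2 mutants and 0 controls. Within 500 bp of the Tiam1 region, 5 of 6 mutants had a deposited summit of any rank.

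The 4 regions of mutants lay next to Vcan, Fgfbp3, Kcnmb1 and Clec14a. At Vcan, which encodes the matrix proteoglycan versican, the region chr13:89739430-89739598 is inside the gene, 3513 bp from its nearest end. It ranked 26843, 20128, 21137, 16770, 26364 and 20190 in mutants 1 to 6. No control on the diet, and no control off it, had a deposited summit of any rank there or within 500 bp of it. Off the diet, mutants 3 and 4 had one, at ranks 13780 and 30283, and mutants 1 and 2 had none. The Fgfbp3 region, chr19:36910811-36910912, ranked 14834 to 28860 in mutants. Every control had a deposited summit there as well, at ranks 29289 to 41425, the best of them just outside the matched set of 29112. Controls 1, 3, 4 and 5 had a summit below the matched set near Kcnmb1, a potassium channel subunit gene, and all 5 near Clec14a, an endothelial lectin gene.

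Most of these losses and gains lay near the lower end of the ranks used. The median rank where present was 21440 to 27304 for the 6 regions and 20663.5 to 24710 for the 4. Of the 36 library and region combinations missing in mutants, 17 (47.2%) had a lower-ranked deposited summit, and of the 20 missing in controls 14 (70.0%) did. The list of mutant 4 ends with the matched set, so its combinations at the 6 regions could not have one. This lowers the share in mutants, and the shares of the groups are not directly comparable. Vcan and Zfp703 were the regions with no deposited summit at all in the group without them.

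**Figure D4:**
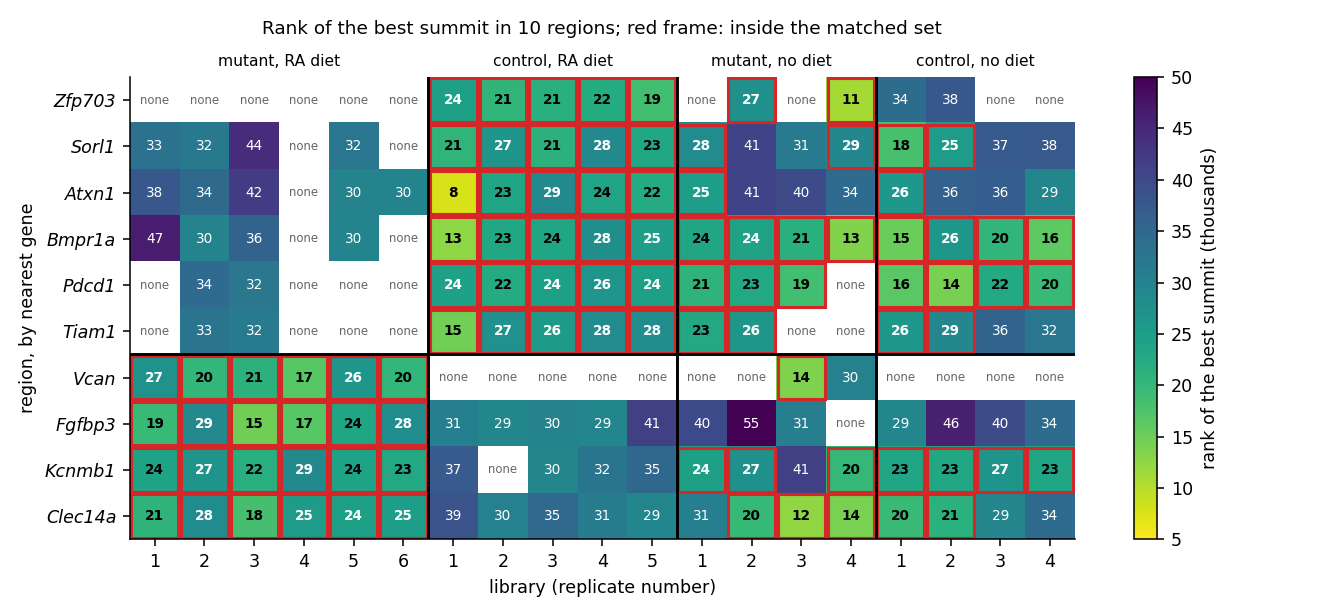
Rank of the best deposited summit (a cell reading 24 for Zfp703 in control 1 stands for rank 24471) in the 10 separated regions (rows, by nearest gene) and all 19 libraries (columns, by group and replicate). A red frame marks a summit inside the matched set of 29112 and "none" a library with no deposited summit; at Vcan all 9 controls read none, while at Bmpr1a all 8 libraries off the diet are framed.

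At 4 places a region less often held by mutants lay within 500 bp of a region more often held by them, so that the position of the summit differed. This was examined after the values were seen. Near Zfp703, a transcriptional repressor gene, all 5 controls held chr8:26689585-26689624, and 5 of 6 mutants held chr8:26689825-26689930, 201 bp further on, where no control on the diet had a summit of any rank. Counting either position, the locus was held by 5 mutants and 5 controls. In Ilvbl, an enzyme gene, controls 1 to 4 had their summit at chr10:78574468-78574494 and the 6 mutants and control 5 at chr10:78574707-78574941. Off the diet, all 4 controls and mutants 1 to 3 held the second Ilvbl position, so that only controls 1 to 4 on the diet and mutant 4 off it held the first. At St6gal1, which encodes a sialyltransferase, mutants 1 to 5 held chr16:23224782-23224871 and the 5 controls and mutant 6 chr16:23225114-23225277. At Sptb, the beta-spectrin gene, mutants 1 to 5 held chr12:76710154-76710286, and the 5 controls and mutant 6 held chr12:76710599-76710629, 313 bp away and 67 bp outside the gene. No library on the diet held both Sptb positions. Off the diet, mutants 3 and 4 held the first Sptb position, at ranks 23556 and 19745, and mutants 1 and 2 and all 4 controls the second. At Zfp703 the control position was held off the diet by 2 of 4 mutants and 0 of 4 controls, the other way round, and the second by 1 of each, with 1 summit of mutant 4 counted for both. At St6gal1 the control position was held by 3 mutants and 3 controls off the diet and the other by 1 of each. Of the 141 regions at an unadjusted p under 0.05, 30 (21.3%) had another region within 500 bp, beside 17.0% of all regions tested.

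For the 14887 regions held by all 11 libraries, ranks were compared. 0 were called in limma on normal scores of the rank, 418 (2.81%) had an unadjusted limma p under 0.05, and no adjusted value was below 1.00 after rounding. Without mutant 6, 1623 had an unadjusted p under 0.05, 0 were called and the smallest adjusted p was 0.306. Leaving out any other library gave 279 to 491, with 279 without control 1. Among the regions with the smallest p-values, which are named after their values were seen, was the promoter of Pgk1, the gene of a glycolytic enzyme on the X chromosome. Its summit at chrX:106186948-106187028 ranked 675, 550, 435, 126, 406 and 1111 in mutants and 1978, 2893, 2210, 1827 and 2393 in controls. The groups did not overlap (normal-score difference 0.71, SE 0.141, limma adjusted p = 1.00), and with the Y-chromosome signal as a term the difference was 0.80. Off the diet, mutants 1 to 4 ranked 965, 714, 59 and 1068 and controls 1 to 4 ranked 3872, 4757, 523 and 2033, which overlap through control 3. The labels do not describe the construct of the LacZ allele, and reads from any copy of this promoter in it could not be told apart from those of the gene. Ranks that did not overlap were also seen at Naa15, an acetyltransferase subunit gene, where a region 198 bp outside the gene ranked 12200 to 19131 in mutants and 8244 to 10820 in controls, and at a region next to Fbxl14, an F-box protein gene, with 14961 to 21082 against 22064 to 26900. How many of the 14887 regions do not overlap is not given here. These were picked for their small p-values, so their lack of overlap carries no weight of its own.

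The libraries off the diet, which took no part in choosing regions, gave an outside reading. Of the 97 regions less often held by mutants on the diet, mutants off it held 50.8% ± 12.5 and controls 61.3% ± 7.65 (SD, n = 4 each; exact permutation p = 0.257). Of the 44 more often held, mutants held 42.0% ± 16.6 and controls 26.1% ± 2.93 (SD, n = 4 each; exact permutation p = 0.0857, 0.171 adjusted over both sets). Mutants 2, 3 and 4 held 36.4, 65.9 and 38.6% of the 44, above every control, which held 22.7 to 29.5%. Mutant 1, with the wild-type label, held 27.3%, inside that range. Without it the means were 46.97% and 26.1%, with an exact permutation p of 0.0286, the smallest that 3 against 4 libraries can give. This value is not adjusted over both sets. Mutants 3 and 4 off the diet had median matched scores of 34.9 and 10.7, against 53.1 to 110.9 in the other libraries off it. Their shares of matched summits beyond 100 kb were 20.99 and 21.01%, against 15.0 to 18.3%. The off-diet summits at Vcan and at the first Sptb position were theirs as well. How far these traits bear on their shares of the 44 regions was not tested. Without mutant 1 the 97 regions gave 47.4% in mutants and 61.3% in controls (exact permutation p = 0.2). Over all regions tested the shares were 49.4% and 52.5% (exact permutation p = 0.229). For the 6 and the 4 separated regions alone, the shares in mutants and controls were 58.3% and 54.2%, and 43.8% and 37.5% (exact permutation p = 1 for each).

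**Figure D5:**
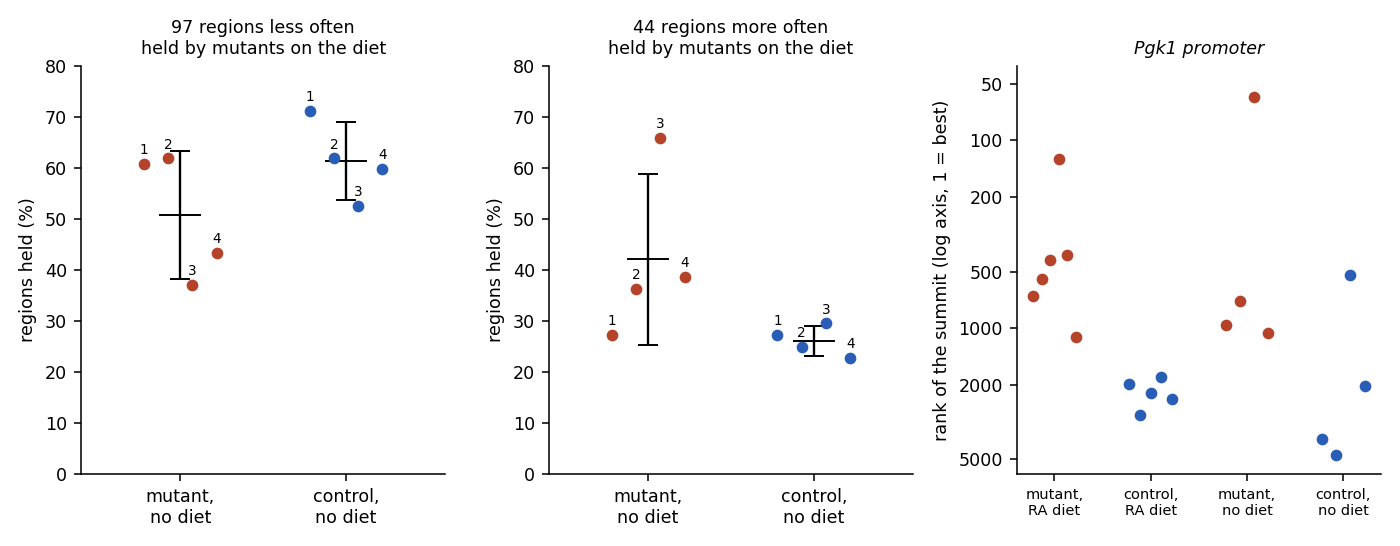
Left and middle, share of the 97 and 44 regions held by each library off the diet (points with replicate numbers, black marks mean and SD, n = 4 each); mutant 1 has a wild-type genotype label. Right, rank of the Pgk1 promoter summit in all 19 libraries on a log axis with rank 1 at the top; the 6 mutants on the diet lie between 126 and 1111 and the 5 controls between 1827 and 2893.

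Whether the genotype difference itself changed with the diet was tested as an interaction over all 19 libraries. Off the diet only control 1 had deposited summits on the Y chromosome (6). The interaction was not fitted with the Y-chromosome signal as a term. Of 7569 genes, 0 were called in limma, 343 had an unadjusted p under 0.05 (659, again with 0 called, without off-diet mutant 1), and Fgfbp3 had the smallest adjusted p, 0.204. Its difference was 0.74 on the log2 scale on the diet and 0.00 off it. Its counts have no spread within any group, so the interaction SE of 0.142 is borrowed by limma from other genes. For Bmpr1a the differences were -1.0 and -0.12, and the interaction had a limma adjusted p of 0.877. For Sox2 they were -0.14 and 0.21, with a limma adjusted p of 0.877. Of the 331 genes at an unadjusted p under 0.05 on the diet, 291 had a difference other than 0 off it, and 195 of those (67.0%) had the same sign, beside 57.6% of all tested genes. These 2 comparisons share no library, and the share is a description across genes, which are not independent.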

How the data were processed

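Per the labels, libraries were made with a Zymo ATAC-seq kit. Per the submitters' processing notes, BWA, MACS2, Signac and DiffBind were used with mm10 and GRCm38; versions are not given in the sources used here. The authors deposited 1 list of summits per library, each called on that library alone; the deposited score is a -log10 q value, and its lowest values lie near 1.30, a q of 0.05. It was used only to rank summits. Read counts were not used here, so depth is unknown; the number of summits stands in for it.

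The best 29112 summits per library were kept. Genes came from RefSeq GRCm38.p6 (21883 protein-coding genes). The table gives no strand, and start sites of the promoter table cover 17491 of these genes, so gene ends were used and start sites tried as an added alternative. Summits per gene were tested with limma 3.58.1 (trend and robust) in R 4.3.3 on log2(summits + 0.5), where genes averaged 1 summit or more; regions with Fisher's exact test; ranks with limma on normal scores; single values with exact permutation tests over all 462 groupings of 11 libraries or 70 of 8, two-sided. Python 3.11.15, scipy 1.17.1 and matplotlib 3.10.9 were used. The scripts were tested on simulated data. The members and gene lists were chosen with earlier results of these data known.

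The genes named are those of the study's question, the 6 with the smallest p in each direction, and those at separated regions; names added afterwards are marked, and 1 gene is not reported here. Replicate numbers of mutants and controls were not treated as pairs in the main tests. Correlations of same-numbered deviations were -0.02 to 0.10 for gene counts, where no pair was best partners both ways. For rank scores they were -0.06 to 0.28, and the pairs numbered 3 and 5 were best partners both ways. Whether same-numbered libraries belong together is therefore not settled.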

Additional observations from a re-analysis of the deposited data

Results flagged for a closer look

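Mutant 6 on the diet stood apart from the other 5 mutants in its share of matched summits within 1 kb of a gene end, 36.2%, where the others lay between 30.2 and 32.1%. It was likewise apart in the share beyond 100 kb, 14.3%, against 18.03 to 20.2% in the other mutants. At Tbr1 it held 5 summits, and the other mutants 2 or 3. It was also the mutant that held the control positions at Sptb and St6gal1. In 38 such groups of library measures and gene counts examined, chance flags about 1 in 20. Mutant 4 had the lowest median matched score, 7.33. It held 4835 regions that no other library on the diet held, against 200 to 2286 in each of the others.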

How the results depend on the processing

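Of 181 values of the 11 main results under alternatives, 157 had the same call and direction. No gene was called in the main comparison, 1 with the log10 number of summits as a covariate (Pnoc, the prepronociceptin gene, limma adjusted p = 5.1e-05, with 0, 0, 0, 3, 1 and 1 summits in mutants and 3, 2, 2, 2 and 3 in controls), and 2 in the fit over all 19 libraries (Fgfbp3, adjusted p = 0.00191, and Bmpr1a, adjusted p = 0.0263). Without each library in turn 0 genes were called, 238 to 491 had an unadjusted limma p under 0.05, and the smallest adjusted values were 0.0578 (without mutant 5) to 0.804. Regions of all controls and no mutant numbered 37 with all deposited summits, 1 with 0.5 times as many summits, 10 chained at 100 bp and 25 with the shortest list left out and lists matched again, chosen after seeing the data; without 1 library they numbered 11 to 26. Regions of all mutants and no control numbered 0 with 0.5 times as many summits and 13 with the shortest list left out; without 1 library they numbered 4 to 20. With 0.5 times as many summits the off-diet reading of the latter gave no value, and ranks over all deposited summits were not run because lists of unequal length have no common rank. With 1 library fewer, as also with the shortest list left out, complete separation is easier to meet. Higher counts there come in part from the rule. The cause of the other changes was not tested beyond the number of summits and libraries entering. With the replicate block, 0 genes (496 at an unadjusted limma p), 0 ranks (1681) and 0 interactions were called. On the diet, replicate number 6 is mutant 6 alone, so the block leaves that library no part in the gene and rank differences. Leaving mutant 6 out without the block gave 491 genes and 1623 ranks at an unadjusted limma p under 0.05. The block counts therefore cannot separate pairing from the absence of mutant 6. Of 510 values for 37 named genes, 58 had the other sign, in 28 genes. Bmpr1a, Rtn1, Pdcd1, Map3k1, Slc25a33 and F2rl2, all lower in mutants, kept their sign under every alternative. Emcn, Fgfbp3, Mak, Slc44a1, Rps6ka5 and Tbr1 turned with all deposited summits, of which mutants had fewer, and Sox2 (0.74) turned with 0.5 times as many. Depth is unknown, and the 10 regions at the smallest possible Fisher p were too few to pass the adjustment, so the absence of calls does not show that regions were alike.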

Other observations

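Foxc1 lies on chromosome 13. Of the 286 genes tested there, 22 (7.69%) had an unadjusted limma p under 0.05 between mutants and controls on the diet, beside 331 of 7038 (4.70%) over all chromosomes, and no other chromosome had a higher share. Mak, Map3k1 and F2rl2 of the named genes and the Vcan and Atxn1 regions lie on it. Foxc1 itself and Nr2f1, a gene of the study's question, also lie on it, with unadjusted limma p of 0.165 and 0.770. Foxc1 starts at base 31806646, Mak at 41025007, F2rl2 at 95696920 and Map3k1 at 111746428. The Atxn1 and Vcan regions start at 46038852 and 89739430. Among regions, 6 of 1122 on chromosome 13 (0.535%) had an unadjusted Fisher exact p under 0.05, beside 0.580% over all chromosomes. These shares were looked at after the values were seen and carry no test.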
